A study of Mus musculus with 6 samples.

Results

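The 30 genes described here are those of the sterol regulatory axis, cholesterol synthesis and fatty acid synthesis. They were taken by gene name from these pathways, and all 30 were found among the 11234 genes listed in the RNA-seq data. They comprise 5 regulators (*Srebf1*, *Srebf2*, *Scap*, *Insig1* and *Insig2*), 6 enzymes of the mevalonate arm from HMG-CoA synthase to farnesyl diphosphate, 11 enzymes from squalene to cholesterol, 1 sterol transfer protein (*Stard4*) and 7 enzymes of fatty acid synthesis, elongation and desaturation. RNA was taken from MC3T3-E1 cells, a C57BL/6 mouse preosteoblast line used at passage 4, which serves as a culture model of osteoblasts. After 24 h of synchronization without serum, cells were kept for 24 h in complete medium with 100 μmol/L cyanidin-3-O-glucoside (C3G, a plant anthocyanin) or in the same medium without it, and 3 libraries were made for each group. The comparison addresses how C3G changes gene expression in osteoblast-lineage cells. The libraries are numbered 1 to 3 in each group, and values are given below in that order.

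Cholesterol and fatty acids are both built from cytosolic acetyl-CoA, and many genes of these routes are controlled together by the membrane-bound transcription factors SREBP-1 (*Srebf1*) and SREBP-2 (*Srebf2*). When sterols are scarce, the sterol sensor SCAP escorts SREBPs from the endoplasmic reticulum to the Golgi, where proteases free their active part, and when sterols are plentiful the INSIG proteins hold SCAP back. SREBP-2 mainly drives cholesterol synthesis and uptake and one form of SREBP-1 mainly drives fatty acid synthesis, with *Insig1* itself a target of SREBPs. The messenger RNA of these target genes is therefore widely used as a readout of the sterol state of a cell.

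SREBPs often bind together with the factor NF-Y, which recognizes the CCAAT box, so the promoters of the members were searched for these letters. Of the 30 genes, 24 have a promoter in the RefSeq table for GRCm38.p6, and the 6 others (*Fdps*, *Fdft1*, *Sqle*, *Stard4*, *Scd1* and *Scd2*) were not searched. Each window held the 250 bases before a start site and the 50 bases from it, both strands were read, and a gene counted if any of its windows held the letters. The promoter of *Hmgcs1* (chr13:119690101-119690350, plus strand) is shown as the only matched member with the searched sterol regulatory element, that of *Insig1* (chr5:28071162-28071362, plus strand) and that of *Sc5d* (chr9:42264301-42264550, minus strand) for the E-box, and that of *Fasn* (chr11:120824548-120824797, minus strand) as the fatty acid synthase promoter with several CCAAT boxes. All are written 5′ to 3′ along the gene and end just before the start site, except *Insig1*, which ends at position -50 from it. Capitals mark CCAAT (written ATTGG where it lies on the opposite strand), the sterol regulatory element TCACCCCAC and the E-box CACGTG.
Hmgcs1: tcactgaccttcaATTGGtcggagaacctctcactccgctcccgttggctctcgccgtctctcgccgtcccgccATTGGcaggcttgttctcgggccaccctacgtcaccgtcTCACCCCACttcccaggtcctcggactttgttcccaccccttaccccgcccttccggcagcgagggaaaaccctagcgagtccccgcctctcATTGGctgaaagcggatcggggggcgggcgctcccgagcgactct
Insig1: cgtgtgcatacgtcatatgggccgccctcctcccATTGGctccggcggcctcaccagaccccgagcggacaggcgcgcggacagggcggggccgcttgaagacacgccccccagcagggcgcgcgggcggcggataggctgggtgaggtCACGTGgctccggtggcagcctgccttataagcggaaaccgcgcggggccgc
Sc5d: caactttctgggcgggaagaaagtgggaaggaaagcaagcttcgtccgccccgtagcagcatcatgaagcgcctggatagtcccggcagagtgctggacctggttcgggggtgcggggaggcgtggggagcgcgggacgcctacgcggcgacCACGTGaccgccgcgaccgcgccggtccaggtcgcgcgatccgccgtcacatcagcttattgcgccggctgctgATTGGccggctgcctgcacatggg
Fasn: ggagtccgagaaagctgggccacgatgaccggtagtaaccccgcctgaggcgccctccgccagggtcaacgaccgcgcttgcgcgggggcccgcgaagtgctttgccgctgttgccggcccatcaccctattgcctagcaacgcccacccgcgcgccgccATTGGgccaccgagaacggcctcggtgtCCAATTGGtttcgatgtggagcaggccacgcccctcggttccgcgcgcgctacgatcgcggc

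CCAAT was found in 21 of the 24 members (87.5%), against 41.1% of the 27025 genes of the table, and was not found in the windows of *Scap*, *Acaca* and *Elovl6*. In *Fasn* the CCAAT of one strand and that of the other overlap within CCAATTGG. The element TCACNCCAC was found in 1 of 24 members (4.17%), *Hmgcs1*, where it begins at position -137 from the start site, against 1.44% of all genes. CACGTG, which reads the same on both strands and was counted once, was found in 5 of 24 members (20.8%), *Scap*, *Insig1*, *Hsd17b7*, *Sc5d* and *Dhcr7*, against 8.09% of all genes. These are matches of letters, they do not show that a factor binds, and a window without a match says nothing about the factor.

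Expression was deposited as FPKM, fragments normalised to the length of the gene model and to the library total, so levels of different genes can be set side by side per length. The deposited values hold no read counts and the depth of each library is unknown. Summed over the 11234 genes the libraries held 240668 to 263290 FPKM, with a median of 5.797 to 7.40 FPKM per gene and 9 to 71 genes at 0. Control replicate 1 stood apart from the other libraries by the GC content of the transcript: its departure from control replicates 2 and 3 had a Spearman's rho of 0.748 with GC content across 11211 genes, which share the same libraries and are not independent replicates. For C3G replicate 1 against C3G replicates 2 and 3 the rho was 0.631. Libraries with the same number deviated together from their group means (r 0.653, 0.580 and 0.440 across genes for numbers 1, 2 and 3, against -0.640 to 0.307 for different numbers). Deviations from a group mean cancel out within the group, so the r of different numbers is not independent of that of same numbers. The labels give no pairing, so the difference between the groups is given both without and with the replicate number as a block.

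None of the 30 genes was at 0 in any library. Together they made up 0.361, 0.444 and 0.409% of the summed FPKM in the untreated libraries and 0.449, 0.442 and 0.433% in the C3G-treated libraries. The lowest of these shares belonged to control replicate 1. *Scd2*, a stearoyl-CoA desaturase that makes monounsaturated fatty acids, alone held 33.0 to 41.0% of that sum and ranked 64th of the 11234 genes by its untreated mean of 362 ± 58.7 FPKM (mean ± SD, n = 3). Next in level stood *Acly*, which makes cytosolic acetyl-CoA from citrate (69.7 ± 5.96 FPKM), *Srebf2* (63.3 ± 29.6 FPKM), the desaturase *Scd1* (59.1 ± 18.7 FPKM), *Fasn* (47.6 ± 11.1 FPKM) and the elongase *Elovl6* (43.0 ± 15.8 FPKM). The untreated ranges of neighbours in this order below *Scd2* overlapped, and in control replicates 2 and 3 *Scd1* stood above *Srebf2*. At the other end, *Acss2*, which makes acetyl-CoA from acetate, had 2.19 ± 0.215 FPKM and *Tm7sf2*, a sterol C14 reductase, had 2.38 ± 0.571 FPKM in untreated cells.

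**Figure D1:**
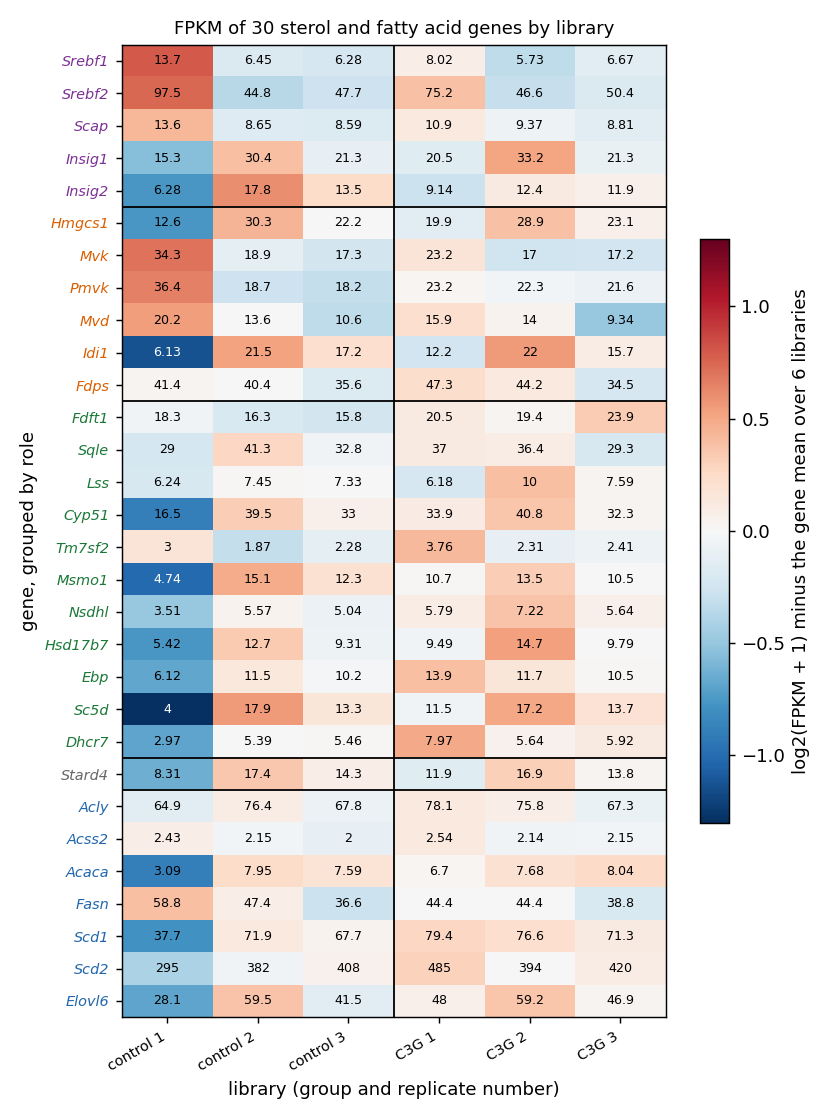
FPKM of the 30 sterol and fatty acid synthesis genes (one line per gene, grouped by role) in the 3 control and 3 C3G libraries; the printed number is the FPKM and the colour is log2(FPKM + 1) minus the mean of the gene over the 6 libraries. Control replicate 1 is the lowest of the 6 libraries for 18 genes and the highest for 7.

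None of the 30 genes passed the test for a difference between C3G-treated and untreated cells. The test was a moderated linear model (limma) on log2(FPKM + 1) over all 11234 genes, two-sided, and a differentially expressed gene (DEG) needed a 1.2-fold change and a p under 0.05 before adjustment. It called 0 of the 30 members against 0.65% of all genes. With the replicate block it again called 0 members, against 1.5% of all genes. No member had an unadjusted p under 0.05 in either fit, where 74 of all genes had one without the block and 169 with it, and after Benjamini-Hochberg adjustment over all genes 0 genes passed in either. The smallest adjusted p of a member was 0.992 without the block and 0.794 with it (limma). The labels do not say whether the replicates were separate cultures, so these p values measure the spread between the 6 libraries, which may be technical. In bulk RNA fewer cells expressing a gene and less of its RNA per cell cannot be told apart.

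The size of change that these libraries leave possible differed between genes. On the fold scale of FPKM + 1, which understates changes of genes with low FPKM, the 95% interval of the difference held 1-fold for all 30 genes in both fits. It lay within 2-fold in either direction for 22 genes without the block and for 26 with it. A rise of 1.5-fold lay above the upper bound for 9 genes without the block and for 16 with it, and a fall of 1.5-fold lay below the lower bound for 20 and 26 genes. The intervals without the block reached from 0.506-fold at the lowest, for *Srebf1*, to 3.00-fold at the highest, for *Sc5d*. The median log2 difference of the members was 0.17, with 22 genes higher and 8 lower, beside a median of 0.057 over all genes, 62.0% of which were higher. Without control replicate 1 the median of the members was 0.068, beside -0.012 over all genes, and 16 of the 30 estimates changed sign.

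**Figure D2:**
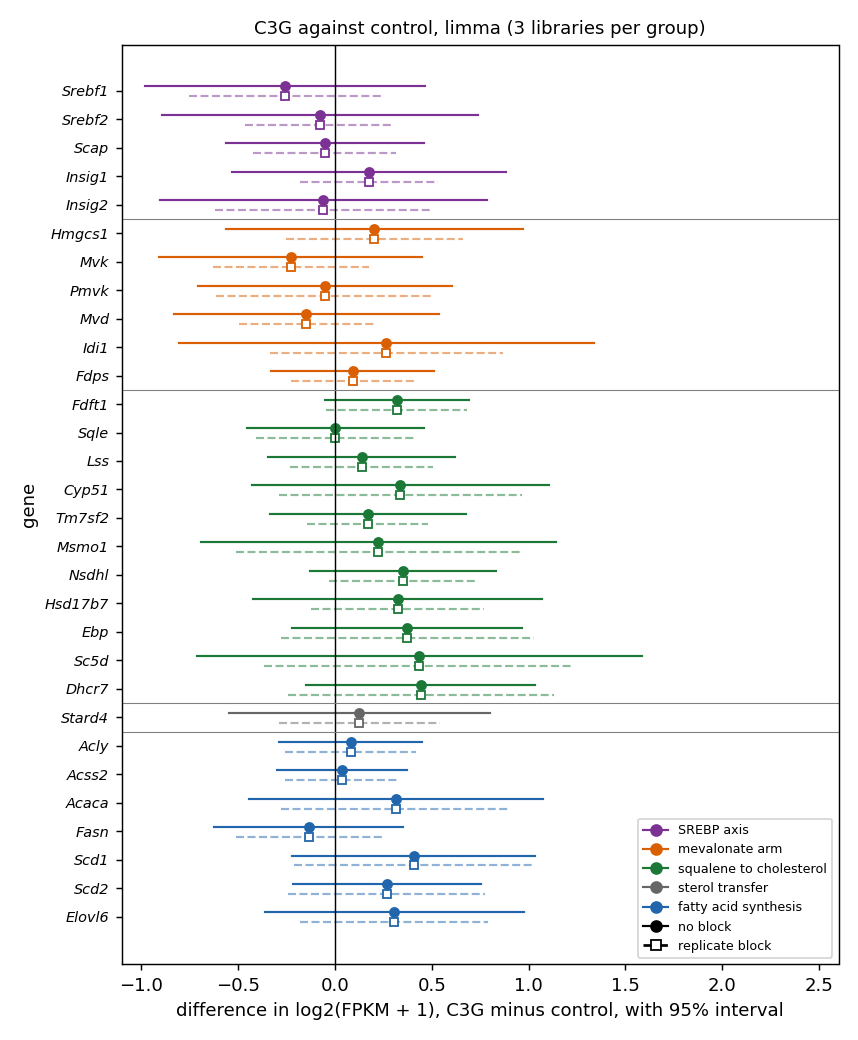
Difference in log2(FPKM + 1) between C3G-treated and untreated cells for each of the 30 genes, grouped by role. Filled circles with solid lines are estimates with 95% intervals from limma without a block and open squares with dashed lines are those with the replicate block (n = 3 per group). All 30 intervals cross 0 in both fits.

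Among the regulators, 1 of 5 was higher and 4 were lower with C3G, with a median log2 difference of -0.059, and none passed the test. By replicate number that median was -0.30, 0.057 and 0.033, so its direction turned in numbers 2 and 3, where 3 and 4 of the 5 were higher. *Srebf1* (chr11:60199089-60222581 on GRCm38, minus strand), the source of SREBP-1, had 13.7, 6.45 and 6.28 FPKM in untreated and 8.02, 5.73 and 6.67 FPKM in C3G-treated libraries. Control replicate 1 was the highest of the 6 libraries, C3G replicate 2 was the lowest, and the groups overlapped. Its means were 8.80 ± 4.22 and 6.81 ± 1.15 FPKM (SD, n = 3), a log2 difference of -0.26 ± 0.30 (SE), with a fold of 0.836 (95% interval 0.506 to 1.38) and a two-sided exact permutation p of 0.7. *Srebf2* (chr15:82147181-82205379, plus strand), the source of SREBP-2, had 97.5, 44.8 and 47.7 FPKM untreated and 75.2, 46.6 and 50.4 FPKM with C3G. In both groups replicate 1 was well above the others, and the groups overlapped. Its means were 63.3 ± 29.6 FPKM untreated and 57.4 ± 15.5 FPKM with C3G (SD, n = 3), a log2 difference of -0.079 ± 0.34 (SE). The fold of *Srebf2* was 0.947 (0.538 to 1.67), and 0.725 to 1.24 with the block (exact permutation p = 0.9). *Scap* (chr9:110333288-110384950, plus strand), the sterol sensor, had 13.6, 8.65 and 8.59 FPKM untreated and 10.9, 9.37 and 8.81 FPKM with C3G, again highest in replicate 1 of each group. The means of *Scap* were 10.3 ± 2.87 FPKM untreated and 9.69 ± 1.07 FPKM with C3G (SD, n = 3), a log2 difference of -0.053 ± 0.22 (SE), with a fold of 0.964 (0.676 to 1.37, exact permutation p = 1).

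The INSIG genes encode the retention proteins of SCAP. *Insig1* (chr5:28071363-28078662, plus strand), whose promoter with a CCAAT box and an E-box is printed above, had 15.3, 30.4 and 21.3 FPKM in untreated and 20.5, 33.2 and 21.3 FPKM in treated libraries. It was higher with C3G within each replicate number, by 0.40, 0.12 and 0.00096 on the log2 scale, while replicate 2 exceeded replicate 3 in both groups by more than the groups differed. Its means were 22.3 ± 7.61 FPKM untreated and 25.0 ± 7.10 FPKM with C3G (SD, n = 3), a log2 difference of 0.17 ± 0.30 (SE). Its fold was 1.13 (95% interval 0.691 to 1.84 without the block and 0.882 to 1.44 with it, exact permutation p = 0.6). *Insig2* (chr1:121304353-121332589, minus strand) had 6.28, 17.8 and 13.5 FPKM untreated and 9.14, 12.4 and 11.9 FPKM with C3G. All 3 treated libraries lay between the lowest and the highest control, control replicate 1 being the lowest of the 6. The means of *Insig2* were 12.5 ± 5.802 FPKM untreated and 11.2 ± 1.75 FPKM with C3G (SD, n = 3), a log2 difference of -0.059 ± 0.35 (SE). The fold of *Insig2* was 0.960 (0.535 to 1.72, exact permutation p = 0.8), and without control replicate 1 it passed the unadjusted threshold of limma with a log2 difference of -0.45.

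The mevalonate arm gave a median log2 difference of 0.020, with 3 genes higher and 3 lower and none past the test. *Hmgcs1* (chr13:119690379-119708260, plus strand), which condenses acetyl-CoA and acetoacetyl-CoA into HMG-CoA, had 12.6, 30.3 and 22.2 FPKM in untreated and 19.9, 28.9 and 23.1 FPKM in treated libraries. The C3G libraries all lay within the range of the controls. Its means were 21.7 ± 8.85 and 23.98 ± 4.60 FPKM (SD, n = 3), with a log2 difference of 0.20 ± 0.32 (SE), a fold of 1.15 (0.677 to 1.96 without and 0.839 to 1.58 with the block) and an exact permutation p of 0.8. The next enzymes, the kinases that phosphorylate mevalonate and the decarboxylase that follows them, all had their highest value in control replicate 1. The first kinase, *Mvk*, had 34.3, 18.9 and 17.3 FPKM untreated and 23.2, 17.0 and 17.2 FPKM with C3G, a fold of 0.854 (0.533 to 1.37). The second, *Pmvk*, had 36.4, 18.7 and 18.2 FPKM untreated and 23.2, 22.3 and 21.6 FPKM with C3G, a fold of 0.965 (0.612 to 1.52). In replicates 2 and 3 only, the log2 difference of *Pmvk* turned from -0.051 to 0.24, with an unadjusted limma p under 0.05 but less than the 1.2-fold change of a DEG. The decarboxylase *Mvd* had 20.2, 13.6 and 10.6 FPKM untreated and 15.9, 14.01 and 9.34 FPKM with C3G, a fold of 0.903 (0.562 to 1.45). Of all 30 members *Mvk* was the only 1 lower with C3G within every replicate number (3.33%), against 11.6% of all genes. *Idi1*, the isomerase of the 5-carbon units, had 6.13, 21.5 and 17.2 FPKM untreated and 12.2, 22.0 and 15.7 FPKM with C3G. Here control replicate 1 was the lowest of the 6 libraries. *Fdps*, which joins these units into farnesyl diphosphate, had 41.4, 40.4 and 35.6 FPKM untreated and 47.3, 44.2 and 34.5 FPKM with C3G and a fold of 1.06 (0.796 to 1.42). Reads of *Idi1* and *Fdps* may be shared with other loci, since 20.7% and 9.24% of the 75-base stretches of their longest transcripts also occur in transcripts of other genes.

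All 11 genes from squalene to cholesterol had a positive estimate in the fit of all 6 libraries, with a median log2 difference of 0.32, and none passed the test. *Sqle* became negative with the GC correction, quantile normalization or median centring, which left 10 of 11 positive. The same held when control replicate 3 or C3G replicate 1 was left out. Without C3G replicate 2 the count was 9, with *Sqle* and *Lss* negative. All 11 stayed positive without control replicate 2 or C3G replicate 3. In replicates 2 and 3 only, 8 of 11 were positive with a median of 0.077, *Sqle*, *Msmo1* and *Sc5d* being negative, and without control replicate 1 the count was 7 and the median 0.067. By replicate number the median of these 11 genes was 0.71, 0.056 and 0.045 for numbers 1, 2 and 3, beside 0.19, -0.0096 and -0.012 over all genes. Control replicate 1 was the lowest library for 8 of the 11. The untreated and treated libraries did not overlap in 3 of the 30 members (10%), against 4.02% of all genes, and all 3 (*Fdft1*, *Nsdhl* and *Dhcr7*) belong to this arm, each higher with C3G.

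*Fdft1* (chr14:63145150-63179578, minus strand), squalene synthase and the first enzyme committed to sterols, had 18.3, 16.3 and 15.8 FPKM in untreated and 20.5, 19.4 and 23.9 FPKM in treated libraries. Every C3G library exceeded every control, and the estimate did not rest on control replicate 1, which was the highest of the controls. Its means were 16.8 ± 1.31 and 21.3 ± 2.37 FPKM (SD, n = 3), with a log2 difference of 0.32 ± 0.16 (SE), a fold of 1.25 (95% interval 0.965 to 1.61) and an exact permutation p of 0.1, the smallest that 3 against 3 can give. In replicates 2 and 3 alone its log2 difference was 0.40 and without control replicate 1 it was 0.38, and in both of these fits *Fdft1* passed the unadjusted threshold of limma. Exons of *Fdft1* overlap those of *Ctsb* on the opposite strand and 6.07% of its 75-base stretches occur in *Gm6781*, and the authors' handling of strand and shared reads is not stated, so its level is uncertain.

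*Nsdhl* (chrX:72918557-72958514, plus strand), a decarboxylase that removes the methyl groups at carbon 4 of the sterol, had 3.51, 5.57 and 5.04 FPKM untreated and 5.79, 7.22 and 5.64 FPKM with C3G. The lowest treated library exceeded the highest control by a small margin. Its means were 4.71 ± 1.07 FPKM untreated and 6.22 ± 0.875 FPKM with C3G (SD, n = 3), a log2 difference of 0.35 ± 0.20 (SE), with a fold of 1.27 (0.913 to 1.78 without and 0.980 to 1.66 with the block) and an exact permutation p of 0.1. *Dhcr7* (chr7:143823145-143848410, plus strand), which reduces 7-dehydrocholesterol to cholesterol, had 2.97, 5.39 and 5.46 FPKM untreated and 7.97, 5.64 and 5.92 FPKM with C3G. Most of its difference came from number 1, where the log2 difference was 1.18, against 0.056 and 0.098 in numbers 2 and 3. The means of *Dhcr7* were 4.61 ± 1.42 FPKM untreated and 6.51 ± 1.27 FPKM with C3G (SD, n = 3), a log2 difference of 0.44 ± 0.25 (SE). The fold of *Dhcr7* was 1.36 (0.902 to 2.05, exact permutation p = 0.1). Without control replicate 1 the log2 difference was 0.19 for *Nsdhl* and 0.21 for *Dhcr7*.

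The 8 other genes of this arm overlapped between the groups. Squalene epoxidase *Sqle*, a rate-limiting step of the route, had 29.0, 41.3 and 32.8 FPKM untreated and 37.0, 36.4 and 29.3 FPKM with C3G, a fold of 1.00 (0.731 to 1.37). Control replicate 2 was its highest library, and its estimate was the nearest to 1-fold of the 30 genes. *Lss*, which closes the sterol rings to lanosterol, had 6.24, 7.45 and 7.33 FPKM untreated and 6.18, 10.0 and 7.59 FPKM with C3G, a fold of 1.10 (0.788 to 1.54). Its highest value was that of C3G replicate 2, and the 5 other libraries were close together. *Cyp51*, the demethylase of lanosterol, had 16.5, 39.5 and 33.0 FPKM untreated and 33.9, 40.8 and 32.3 FPKM with C3G, a fold of 1.26 (0.743 to 2.15). Numbers 2 and 3 of *Cyp51* differed little between the groups, unlike number 1.

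*Tm7sf2*, the C14 reductase, had 3.00, 1.87 and 2.28 FPKM untreated and 3.76, 2.31 and 2.41 FPKM with C3G, a fold of 1.12 (0.792 to 1.60). Unlike most genes of this arm it was higher in replicate 1 than in replicates 2 and 3 of both groups. Exons of *Tm7sf2* overlap those of *Vps51* on the same strand, so its level is uncertain. *Msmo1*, the C4 methyl oxidase, had 4.74, 15.1 and 12.3 FPKM untreated and 10.7, 13.5 and 10.5 FPKM with C3G, a fold of 1.17 (0.618 to 2.20). *Hsd17b7*, a sterol ketone reductase, had 5.42, 12.7 and 9.31 FPKM untreated and 9.49, 14.7 and 9.79 FPKM with C3G, a fold of 1.25 (0.746 to 2.102). In both of these genes control replicate 1 was the lowest library and replicate 2 the highest of its group. *Ebp*, a sterol isomerase, had 6.12, 11.5 and 10.2 FPKM untreated and 13.9, 11.7 and 10.5 FPKM with C3G, a fold of 1.295 (0.858 to 1.95). *Sc5d*, the desaturase of lathosterol whose promoter is printed above, had 4.00, 17.9 and 13.3 FPKM untreated and 11.5, 17.2 and 13.7 FPKM with C3G, a fold of 1.35 (0.609 to 3.00). Its interval was the widest of the 30 genes, and its control replicate 1 was far below the 5 other libraries. *Stard4*, which carries cholesterol through the cytosol and belongs to none of the arms, had 8.31, 17.4 and 14.3 FPKM untreated and 11.9, 16.9 and 13.8 FPKM with C3G, a fold of 1.09 (0.685 to 1.74).

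Of the 7 fatty acid genes, 6 were higher and 1 was lower with C3G, with a median log2 difference of 0.27, and none passed the test. By replicate number that median was 0.71, -0.0088 and 0.073. *Fasn* (chr11:120805846-120824547, minus strand), which assembles palmitate, had 58.8, 47.4 and 36.6 FPKM in untreated and 44.4, 44.4 and 38.8 FPKM in treated libraries. It was the 1 fatty acid gene with a lower mean, and its treated libraries lay within the control range. Its means were 47.6 ± 11.1 and 42.5 ± 3.27 FPKM (SD, n = 3), with a log2 difference of -0.14 ± 0.21 (SE), a fold of 0.911 (0.649 to 1.28) and an exact permutation p of 0.5. *Scd1* (chr19:44394455-44407879, minus strand), a desaturase, had 37.7, 71.9 and 67.7 FPKM untreated and 79.4, 76.6 and 71.3 FPKM with C3G. It was higher with C3G within each number, the treated libraries were close to each other, and C3G replicate 3 lay just under control replicate 2. The means of *Scd1* were 59.1 ± 18.7 FPKM untreated and 75.8 ± 4.11 FPKM with C3G (SD, n = 3), a log2 difference of 0.41 ± 0.26 (SE). The fold of *Scd1* was 1.33 (0.859 to 2.05, exact permutation p = 0.2). Without control replicate 1 its log2 difference was 0.12, and in replicates 2 and 3 only it was 0.082.

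Its neighbour on chromosome 19, *Scd2*, had 295, 382 and 408 FPKM untreated and 485, 394 and 420.4 FPKM with C3G, with a fold of 1.204 (0.860 to 1.68). It was likewise higher within each number, by 0.71, 0.045 and 0.045 on the log2 scale, so most of the estimate came from number 1. The desaturase genes share a small part of their sequence (3.24% of 75-base stretches of *Scd1* and 1.80% of *Scd2* occur in transcripts of other genes), so reads could be split between them. *Acly* had 64.9, 76.4 and 67.8 FPKM untreated and 78.1, 75.8 and 67.3 FPKM with C3G, a fold of 1.06 (0.820 to 1.36). *Acss2* had 2.43, 2.15 and 2.00 FPKM untreated and 2.54, 2.14 and 2.15 FPKM with C3G, a fold of 1.03 (0.812 to 1.295). These sources of acetyl-CoA had the narrowest intervals of the arm. *Acaca*, acetyl-CoA carboxylase, which makes malonyl-CoA, had 3.09, 7.95 and 7.59 FPKM untreated and 6.70, 7.68 and 8.04 FPKM with C3G, a fold of 1.24 (0.735 to 2.102). Of its 75-base stretches 47.4% occur in the annotated gene *Gm5182*, so its level is uncertain. *Elovl6*, which extends palmitate, had 28.1, 59.5 and 41.5 FPKM untreated and 48.0, 59.2 and 46.9 FPKM with C3G, a fold of 1.24 (0.777 to 1.97). In both *Acaca* and *Elovl6* control replicate 1 was the lowest library and the groups overlapped.

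Within replicate numbers, 9 of the 30 members (30%) were higher with C3G in all 3, against 14.2% of all genes, namely *Insig1*, *Fdft1*, *Tm7sf2*, *Nsdhl*, *Hsd17b7*, *Ebp*, *Dhcr7*, *Scd1* and *Scd2*. Of the 11 genes from squalene to cholesterol 6 were among them, and of the mevalonate arm none was. The smallest of these differences was that of *Insig1* in number 3, at 0.00096. Over all 30 members the median log2 difference was 0.43 for number 1, 0.040 for number 2 and 0.045 for number 3. Over all genes it was 0.19, -0.0096 and -0.012.

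Close paralogs were also compared by their ratio within each library. *Srebf2* stood at 7.13, 6.95 and 7.61 times the FPKM of *Srebf1* in untreated libraries and at 9.38, 8.13 and 7.56 times with C3G. The difference of the log2 ratio, taken on FPKM + 1, was 0.18 (exact permutation p = 0.2), and 0.081 without C3G replicate 1. *Insig1* stood at 2.44, 1.71 and 1.57 times *Insig2* in untreated and at 2.24, 2.68 and 1.79 times in treated libraries, a difference of 0.23 (exact permutation p = 0.4) that ran from 0.095 without C3G replicate 2 to 0.39 without control replicate 1. *Scd2* stood at 7.84, 5.31 and 6.02 times *Scd1* untreated and at 6.11, 5.14 and 5.89 times with C3G, a difference of -0.14 (exact permutation p = 0.5) that turned to 0.013 without control replicate 1. After Benjamini-Hochberg adjustment over the 3 ratios all 3 exact permutation p values were 0.5, and the groups overlapped in each.

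Other genes of the same routes were read from a list of 39, of which 33 were listed in the data. None of the 33 was called with or without the block, their median log2 difference was 0.14, and 25 were higher and 8 lower. Within all 3 replicate numbers 6 of the 33 (18.2%) were higher with C3G, against 14.2% of all genes. *Fads1*, a desaturase of polyunsaturated fatty acids, was the 1 gene of the 33 whose groups did not overlap (3.03%, against the 4.02% of all genes), at 67.0, 97.1 and 98.3 FPKM untreated and 119, 108 and 106 FPKM with C3G. Its fold was 1.28 (0.922 to 1.78), and its log2 difference was 0.82 in number 1 against 0.15 and 0.11 in numbers 2 and 3. *Hsd17b12*, a reductase of fatty acid elongation, had the smallest p and the largest fold of the 33, at 21.9, 29.2 and 51.5 FPKM untreated and 49.0, 57.8 and 49.0 FPKM with C3G. Control replicate 3 lay among its treated libraries, and its fold was 1.59 (0.961 to 2.65 without and 0.986 to 2.58 with the block). With the GC correction, and without control replicate 3, *Hsd17b12* passed the unadjusted threshold. When the replicate block was added to the GC correction it did not pass (limma p 0.0573). Both genes were named after their values were seen.

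A second pattern concerned the replicate numbers rather than the treatment. In 10 of the 30 members (33.3%) replicate 2 was at least 1.2-fold above replicate 3 in the untreated and also in the treated pair, against 4.25% of all genes, and in 0 members was it at least 1.2-fold below in both, against 4.91%. This rule was chosen after the values were seen, and libraries of the same number deviated together, so the treated and untreated pairs are not independent. The 10 were *Insig1*, *Hmgcs1*, *Mvd*, *Idi1*, *Sqle*, *Msmo1*, *Hsd17b7*, *Sc5d*, *Stard4* and *Elovl6*. They were the retention protein INSIG1, 3 of 6 mevalonate genes, 4 of 11 genes from squalene to cholesterol, the transfer protein and 1 of 7 fatty acid genes.

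The ratio of replicate 2 to replicate 3 was 1.43 untreated and 1.56 with C3G for *Insig1*. *Elovl6* had 1.44 and 1.26, and *Hmgcs1* had 1.37 and 1.25. The regulators other than *Insig1* did not show it in both pairs: *Srebf2*, for example, had ratios of 0.938 and 0.925. Just inside the limit stood *Stard4*, with 1.22 and 1.22, and just outside it stood *Cyp51*, with 1.199 and 1.26. Over all 30 members the median ratio was 1.13 untreated and 1.14 with C3G, beside 0.999 and 0.997 over all genes. It was 1.19 and 1.27 in the mevalonate arm, 1.13 and 1.26 from squalene to cholesterol, 1.07 and 1.07 in the fatty acid arm and 1.03 and 1.04 among the regulators. With each library corrected for GC content, on the log2(FPKM + 1) scale, 8 of the 30 members (all but *Msmo1* and *Stard4* of the 10) met the rule, against 3.02% of all genes. Of the 33 other genes of the routes, 4 (12.1%) met it without the correction and 2 (6.06%) with it.

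**Figure D3:**
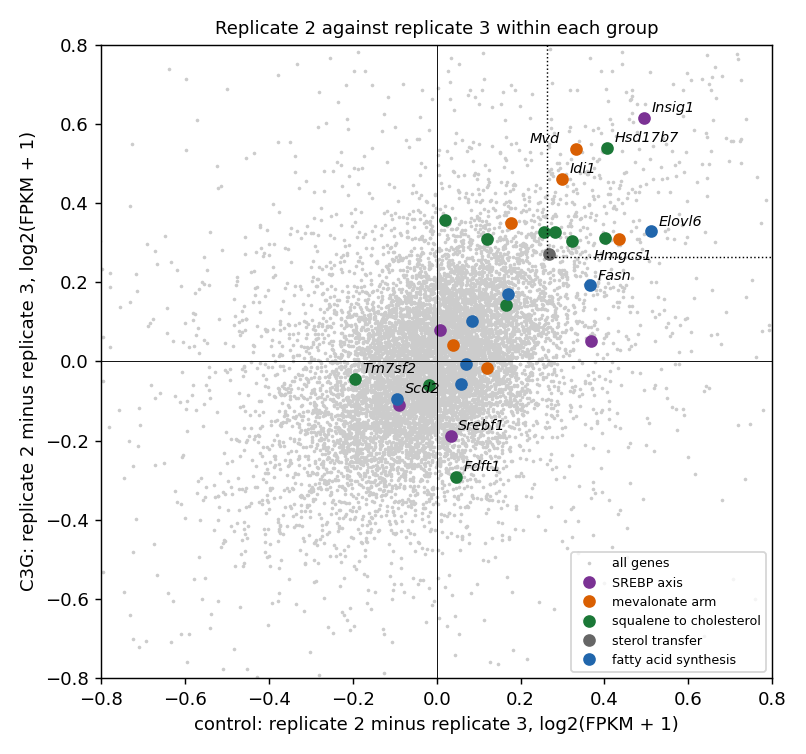
Difference in log2(FPKM + 1) of replicate 2 minus replicate 3 in the untreated pair (x axis) and in the C3G-treated pair (y axis), with all genes in grey and the 30 members in colour; dotted lines mark 1.2-fold in both pairs, and grey points beyond the axes are not drawn. Of the members, 10 lie in the upper right corner and 0 in the opposite one.

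The first libraries differed by GC content among the members as they did among all genes. Across the 30 genes, whose transcripts hold 41.9 to 59.1% GC, the departure of control replicate 1 from control replicates 2 and 3 had a Spearman's rho of 0.859 with GC content, and that of C3G replicate 1 from its group a rho of 0.770. These are descriptions across genes of the same libraries. The 7 members with at least 55% GC (*Srebf1*, *Srebf2*, *Scap*, *Mvk*, *Pmvk*, *Mvd* and *Fasn*) stood in control replicate 1 at 1.40 to 2.15 times the mean of control replicates 2 and 3. The 7 with under 45% GC (*Hmgcs1*, *Idi1*, *Msmo1*, *Hsd17b7*, *Sc5d*, *Stard4* and *Elovl6*) stood there at 0.256 to 0.555 times that mean. In C3G replicate 1 the corresponding ranges were 1.06 to 1.55 and 0.644 to 0.905.

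Control replicate 1 was the lowest of the 6 libraries in 18 members (60%), against 50.2% of all genes, and the highest in 7 (23.3%), against 28.6%. Those 7 were the members with at least 55% GC, and 7 of the 8 members with a negative log2 difference were the same genes, the other being *Insig2*. In replicates 2 and 3 alone the median log2 difference of the 30 members was 0.030, beside -0.011 over all genes. With the GC correction it was 0.072, beside a median of -0.0013 over all genes. Under the correction the estimate of 6 of the 30 members turned its sign: *Srebf2*, *Scap* and *Pmvk* became positive, and *Sqle*, *Stard4* and *Acss2* became negative. In replicates 2 and 3 only, 10 members turned, and with control replicate 1 alone left out 16 did, among them the 7 with at least 55% GC.

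**Figure D4:**
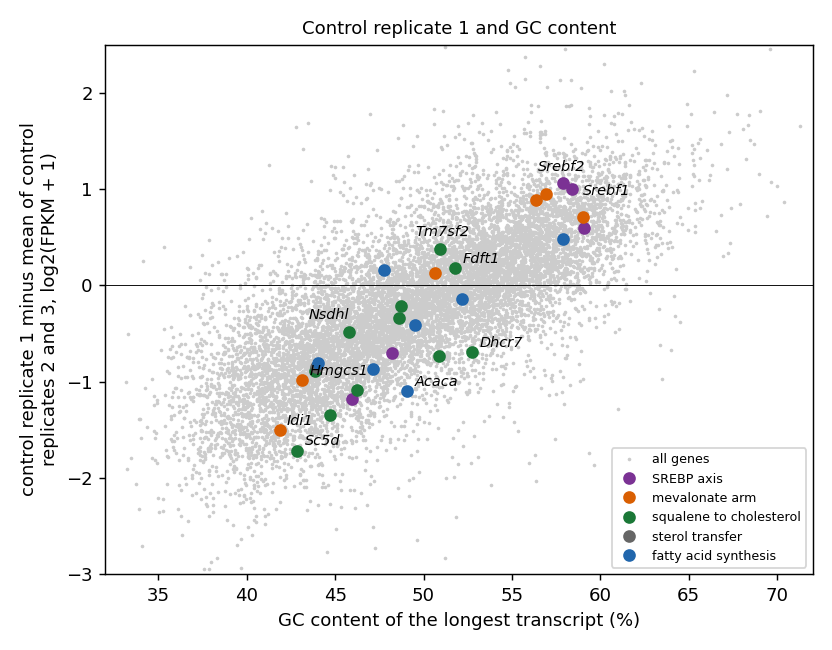
Departure of control replicate 1 from the mean of control replicates 2 and 3, as a log2 difference (y axis), against the GC content of the longest transcript in percent (x axis), with all genes in grey and the 30 members in colour; grey points beyond the axes are not drawn. The 7 members with at least 55% GC lie above 0 and the 7 with under 45% GC lie below it.

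Marker genes of cell types were read in the same libraries. Of 8 osteoblast lineage markers 7 were listed (*Runx2*, *Sp7*, *Col1a1*, *Col1a2*, *Sparc*, *Spp1* and *Postn*), and their summed level was 2471 to 7576 FPKM in untreated and 2505 to 3442 FPKM in treated libraries, with both maxima in replicate 1. In replicates 2 and 3 it was 2471 and 3026 FPKM untreated and 2505 and 2975 FPKM with C3G. Most of the sum was *Col1a1* and *Col1a2*, and other markers went another way: *Runx2*, *Spp1* and *Postn* were lowest in control replicate 1 among the controls, and *Spp1* was higher in replicate 2 than in replicate 3 of both groups. Adipocytes also express the fatty acid genes strongly, and of 8 adipocyte markers only *Cebpa* was listed, at 0.798 to 3.71 FPKM untreated and 1.00 to 1.80 FPKM with C3G, while *Adipoq*, *Fabp4*, *Plin1* and *Pparg* were not among the listed genes. Of 5 macrophage markers *Cd68* and *Lyz2* were listed, summing to 32.3 to 41.0 FPKM untreated and 45.8 to 55.5 FPKM with C3G, nearly all of it *Lyz2*, and of 4 endothelial markers none was listed. The part of these differences in the values of the 30 genes was not tested.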

How the data were processed

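RNA was harvested with Trizol and libraries were made with a stranded kit. The authors deposited 1 FPKM value per gene and library, which the study's methods attribute to Ballgown. The submitters' processing notes name cutadapt, HISAT2 2.1.0, StringTie and STAR 2.5.2b, and the build hg19, which is a human build and cannot belong to the mouse Ensembl identifiers of these files. Filters, annotation release and handling of strand and shared reads are not given in the sources used here. Every listed gene had a mean of at least 0.5002 FPKM in 1 group or both. Without counts, no counting error can be given.

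Groups and replicate numbers came from the sample labels. Identifiers were matched to symbols, positions, GC content and shared 75-base stretches with GENCODE M21 (GRCm38), and 11211 of 11234 matched. Values were fitted as log2(FPKM + 1) with limma 3.58.1 (lmFit, eBayes with trend) in R 4.3.3, over all genes and 6 libraries, with Benjamini-Hochberg adjustment, after tests on simulated data. An exact permutation test over libraries (two-sided, p of at least 0.1) was added for single genes. Python 3.11.15, pandas 2.3.3, numpy 2.4.6 and scipy 1.17.1 were used otherwise. Replicate numbers were taken as pairs, since the deviations of same-numbered libraries from their group means correlated in every pair (r 0.653, 0.580 and 0.440). The labels give numbers but no pairing, so the pairing is an assumption. Across the members, control replicates 1 and 2 correlated most with the C3G library of their own number (r 0.728 and 0.765). Control replicate 3 correlated more with C3G replicate 2 (r 0.449) than with C3G replicate 3 (r 0.376). Full statistics were given for the regulators, *Hmgcs1*, *Fasn* and the 4 other members with the smallest p. The alternatives were a pseudocount of 0.1, a mean FPKM of at least 1, quantile normalization, median centring, the replicate block, a GC correction (spline with 5 degrees of freedom) with and without the block, replicates 2 and 3 only, and leaving out each library. The members, the lists and the tests were chosen with earlier results of these data known, and the GC-corrected count for replicates 2 and 3 was added after the data were seen. Some of the other pathway genes are not reported singly here.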

Additional observations from a re-analysis of the deposited data

How the results depend on the processing

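Of the 14 alternatives, 12 left the number of called members at 0. It was 1 (*Fdft1*) in replicates 2 and 3 only, where 1.70% of all genes were called, and it ranged from 0 to 2 when each library was left out, the 2 being *Fdft1* and *Insig2* without control replicate 1 (1.28% of all genes). Among the other pathway genes the count was 1 (*Hsd17b12*) with the GC correction (1.202% of all genes). It was 0 with the GC correction and the replicate block (2.19% of all genes). The count ranged from 0 to 1 when each library was left out, with *Hsd17b12* called without control replicate 3 (0.890% of all genes). The median log2 difference of the members, 0.17 in the main fit, lay between 0.030 and 0.31 over all 14 alternatives. It lay between 0.062 and 0.31 when 1 library was left out, and the lowest value was that of replicates 2 and 3 only. In each alternative it moved by less than the spread of the control and C3G libraries (0.20). That spread is larger than the estimate, so a fall to 0 would not have exceeded it and this comparison does not show stability. Between 0 and 16 members changed sign under an alternative, the 16 without control replicate 1. The estimate turned to 0.0143, 0.0143 and 0.0670 for *Srebf2* and to 0.0708, 0.0708 and 0.0684 for *Scap* with the GC correction, with the GC correction and the replicate block, and in replicates 2 and 3 only, and to -0.00179 for *Hmgcs1* in replicates 2 and 3 only. With 1 library left out, the estimates ranged from -0.43 to 0.0743 for *Srebf1*, -0.29 to 0.27 for *Srebf2*, -0.16 to 0.15 for *Scap*, -0.0587 to 0.41 for *Insig1*, -0.45 to 0.23 for *Insig2*, -0.12 to 0.48 for *Hmgcs1*, -0.31 to 0.0269 for *Fasn*, 0.24 to 0.38 for *Fdft1*, 0.19 to 0.46 for *Nsdhl*, 0.21 to 0.56 for *Dhcr7*, 0.12 to 0.57 for *Scd1*, and for the log2 ratios from 0.081 to 0.25 for *Srebf2* to *Srebf1*, 0.095 to 0.39 for *Insig1* to *Insig2* and -0.26 to 0.0128 for *Scd2* to *Scd1*. The causes of these changes were not tested.

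With the replicate number as a block, 0 of the 30 members were called, 0 of the 33 other pathway genes were called, and the count over all genes rose from 73 to 169. Without the GC correction the block changed no call among these genes or the paralog ratios. With the GC correction it ended the call of *Hsd17b12* (unadjusted limma p 0.0401 without the block and 0.0573 with it). The depth of the libraries is unknown, so the part of counting error in the spread cannot be given. A gene low in both groups is absent from the list.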
